A study of Mus musculus with 8 samples.

Results

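Sphincter 1 is one of 3 smooth muscle cell types to which nuclei of the mouse iris were assigned, next to sphincter 2 and the dilator muscle. The nuclei described here are those with this assignment in the deposited cell annotation of the libraries from untreated irises. They number 544 of the 14365 nuclei from untreated irises, and of the 34357 nuclei in all 8 libraries. Each library held nuclei pooled from 5 or 6 irises of wild-type, female, albino mice aged 6 to 8 weeks, with more or less of the ciliary body attached, so that variation between single mice cannot be seen. The untreated group (3 libraries) received no eye drops. The constricted group (3 libraries) received pilocarpine (5%), a muscarinic agonist, in the light. The dilated group (2 libraries) received phenylephrine (5%), an alpha-1 adrenergic agonist, together with cyclopentolate (1%), a muscarinic antagonist, in the dark. Drops were given hourly for 6 hours, and eyes were taken 30 minutes after the last dose. Effects of the drugs and of light cannot be told apart.

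The sphincter is a ring of muscle at the margin of the pupil. Parasympathetic fibres release acetylcholine onto it, and the M3 muscarinic receptor acts through Gq, phospholipase C and inositol trisphosphate to raise calcium, which activates myosin light chain kinase. Smooth muscle and striated muscle share actin, myosin and calcium stores, but titin, the myosin-binding C proteins, the muscle creatine kinase and calsequestrin are classically products of skeletal and cardiac muscle.

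The 3 untreated libraries contributed 50, 184 and 310 sphincter 1 nuclei (replicates 1, 2 and 3), with 186010, 627138 and 1107793 unique molecular identifiers (UMIs) in all and a median of 3814.5, 3175.5 and 3377.5 UMIs per nucleus. UMIs were summed over the nuclei of a cell type in each library and are given as counts per 1000000 of that sum (CPM), a nuclear level that includes unspliced RNA. In replicate 1, the thinnest of these libraries, 3 UMIs correspond to 16.1 CPM. In replicates 2 and 3 they correspond to 4.78 and 2.71 CPM. The summed profiles of the libraries correlated with Pearson's r of 0.960, 0.965 and 0.989 across all genes, which are not independent replicates.

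Untreated replicate 1 shared 63 of its 1479 cell barcodes with dilated replicate 1, and 59 of these were assigned to the same cell type in both. Their median was 5479 UMIs in the untreated and 960 UMIs in the dilated library. With constricted replicate 1 it shared 14 barcodes, 13 of the same type, with medians of 6035.5 and 841.5 UMIs. The source of the shared barcodes was not tested. Only 7 untreated sphincter 1 nuclei (4, 0 and 3 in replicates 1 to 3) had a barcode that was also present in another library. Scrublet called 44 of the 544 nuclei doublets (8.09%), with 1, 22 and 21 in the 3 libraries. The share was 3.41% in sphincter 2 and 0.505% in dilator muscle, and up to 10.1% (endothelial cells) in the other types. The genes that lead in sphincter 1, as defined below, numbered 153 without the doublets and 148 without the nuclei of shared barcodes, against 145 with all nuclei, and 139 and 141 of the 145 were among them.

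The assignment was checked against 5 markers. *Ttn* (titin, the giant spring protein of the sarcomere; chr2:76703980-76982547, minus strand, mm10) was at 2038, 1325 and 1687 CPM in sphincter 1 of replicates 1 to 3. *Chrm3* (the M3 muscarinic receptor; chr13:9875486-10360847, minus strand) was at 4086, 3787 and 4001 CPM. *Mybpc1* (slow myosin-binding protein C) was at 1962, 2046 and 2147 CPM. Of these 3 genes, *Ttn* had the widest relative range between libraries.

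*Ctnna3* (alpha-T-catenin, an adhesion protein of cardiac muscle; chr10:63430098-65003667, plus strand) was at 1505, 1394 and 1411 CPM. *Dmd* (dystrophin, which links actin to the membrane) was at 2414, 1711 and 2136 CPM. In every untreated library each of the 5 genes was highest in sphincter 1 of the 10 cell types. As these genes took part in the assignment, their levels are a description and carry no test.

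**Figure D1:**
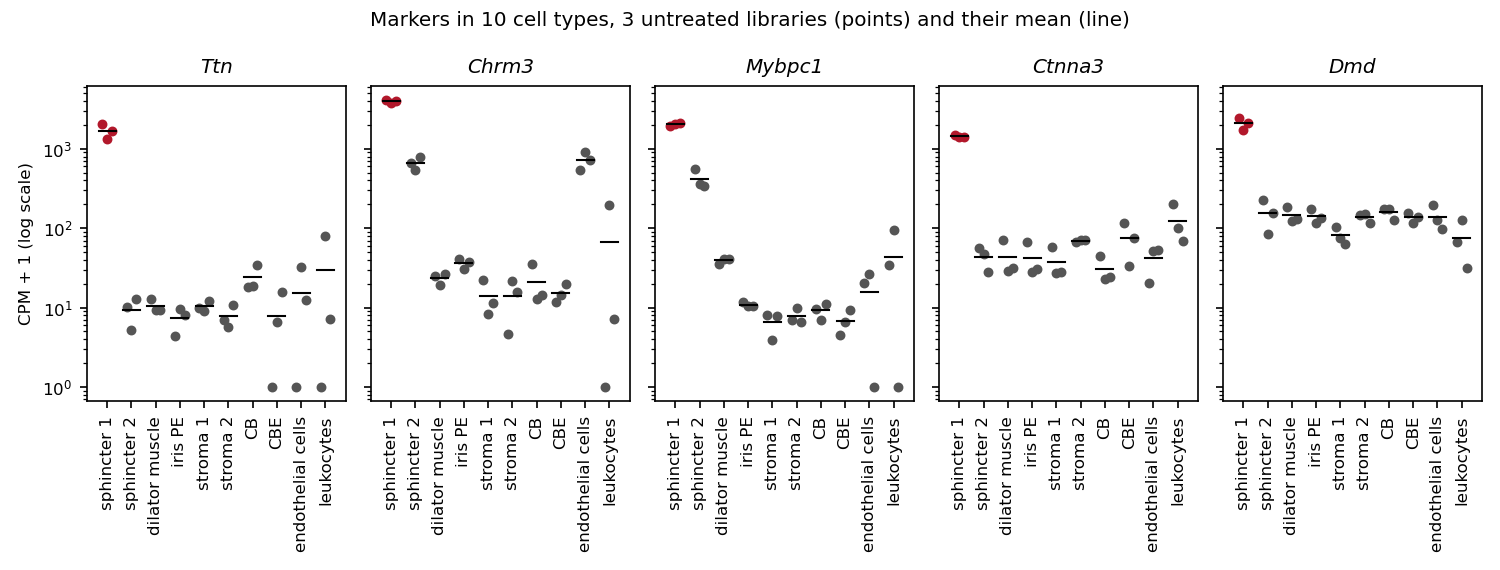
Levels of the 5 markers (CPM + 1, log scale) in the 10 cell types, with 1 point for each of the 3 untreated libraries and a line at their mean. In each panel the 3 points of sphincter 1 lie above all points of the other types; for *Ttn* the sphincter 1 mean is 1683 CPM and that of sphincter 2 is 8.39 CPM.

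The markers differed in which cell type came next. *Ttn* was 58.9-fold above leukocytes (28.6 ± 44.3 CPM, SD, n = 3 libraries), where 21 of its 22 UMIs came from replicate 2. The size of this ratio is not firm, since it was 33.2 from pooled UMIs (95% interval 21.9 to 53.1). On the log2 scale it was 5.88 with the 3 untreated libraries, 5.13 without replicate 1 and 6.19 without replicate 2. With all 8 libraries, treated ones included, it was 6.77. *Dmd* was 13.2-fold above the non-epithelial ciliary body (CB) and *Ctnna3* 11.8-fold above leukocytes. *Chrm3* was 5.48-fold above endothelial cells, which held 722 CPM, slightly more than the 665 CPM of sphincter 2. *Mybpc1* was 4.90-fold above sphincter 2 (419 CPM). The median log2 ratio of the 5 to the next type was 3.56, with an SD over libraries of 0.44.

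The markers also occurred together in single nuclei. A UMI of at least 3 of the 5 was present in 95.04% of sphincter 1 nuclei, in 20.7% of sphincter 2 nuclei and in 1.26% of dilator nuclei. After each nucleus was thinned to 1000 UMIs, which left out 4 sphincter 1 nuclei of lower depth, these shares were 85.2%, 2.56% and 0.0462%. The thinned share in sphincter 1 was 84.0%, 84.0% and 86.1% in replicates 1 to 3. All 5 markers were found in 61.6% of sphincter 1 nuclei (31.3% after thinning) and in 0 of 352 sphincter 2 nuclei and 0 of 4357 dilator nuclei. These are counts of detected UMIs in nuclei of the pooled libraries. They set no limit on the share of nuclei that express the genes, which also took part in the assignment. Median depths of the 3 types were 3332, 3460.5 and 3410 UMIs.

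*Ttn* was the marker missed most often, with a UMI in 72.8% of sphincter 1 nuclei (60.6% after thinning), against 2.71% of dilator nuclei (0.762%). Free RNA, doublets and a low level were not told apart in the latter. Of the 148 nuclei without a *Ttn* UMI, 97.3% had a UMI of *Chrm3*, 89.9% of *Mybpc1*, 79.7% of *Dmd* and 60.1% of *Ctnna3*. In the nuclei with *Ttn* the shares were 99.75%, 97.5%, 93.9% and 90.7%.

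**Figure D2:**
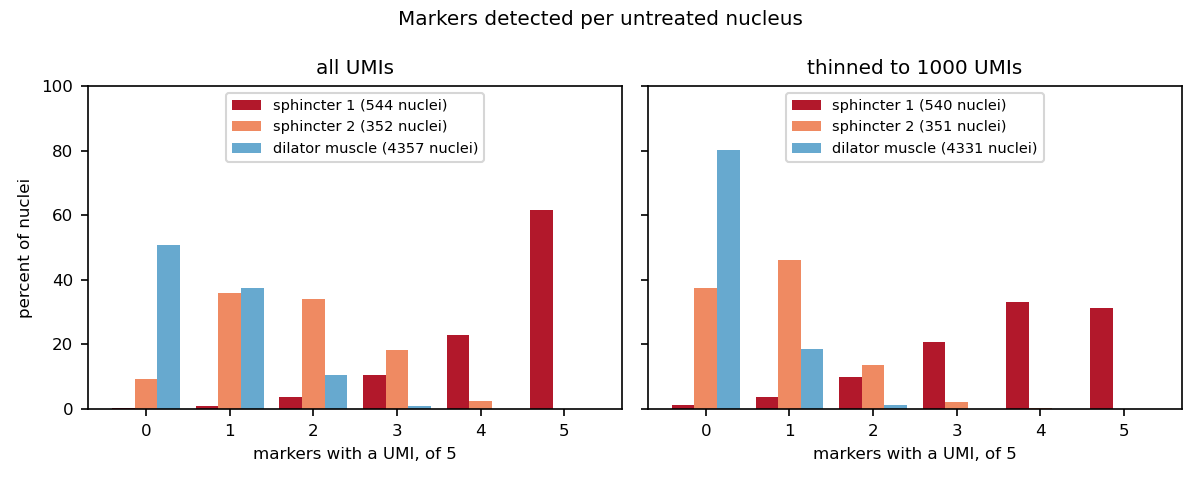
Percent of nuclei (vertical axis) by the number of the 5 markers with at least 1 UMI (horizontal axis), for sphincter 1, sphincter 2 and dilator muscle of the 3 untreated libraries together, with all UMIs on the left and after thinning to 1000 UMIs on the right. The largest group of sphincter 1 nuclei has all 5 markers (61.6%) before thinning, and no sphincter 2 or dilator nucleus has all 5.

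The following promoters, of *Ttn*, *Dmd*, *Casq2* and *Klhl41*, which rank among the 25 genes with the largest excess in sphincter 1, are shown because a binding motif of the muscle factors MEF2 or SRF was found in them. Each runs from 250 bases before to 50 bases after the annotated start (RefSeq, GRCm38.p6). Capitals mark a match to the MEF2 box and, in *Dmd* only, also the CArG box bound by SRF, which is the later of the capital runs.
Ttn, chr2:76982498-76982797, minus strand: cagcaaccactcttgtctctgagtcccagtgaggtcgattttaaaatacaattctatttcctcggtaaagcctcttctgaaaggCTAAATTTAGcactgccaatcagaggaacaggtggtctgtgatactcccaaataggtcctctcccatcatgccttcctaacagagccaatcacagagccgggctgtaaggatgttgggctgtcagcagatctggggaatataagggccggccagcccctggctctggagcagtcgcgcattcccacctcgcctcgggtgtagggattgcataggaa
Casq2, chr3:102086165-102086464, plus strand: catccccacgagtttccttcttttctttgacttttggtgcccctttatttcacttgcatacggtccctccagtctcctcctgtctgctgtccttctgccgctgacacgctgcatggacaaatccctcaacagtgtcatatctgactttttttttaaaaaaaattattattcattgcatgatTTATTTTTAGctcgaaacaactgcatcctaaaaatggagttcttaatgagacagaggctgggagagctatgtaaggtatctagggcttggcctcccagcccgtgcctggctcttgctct
Klhl41, chr2:69669870-69670169, plus strand: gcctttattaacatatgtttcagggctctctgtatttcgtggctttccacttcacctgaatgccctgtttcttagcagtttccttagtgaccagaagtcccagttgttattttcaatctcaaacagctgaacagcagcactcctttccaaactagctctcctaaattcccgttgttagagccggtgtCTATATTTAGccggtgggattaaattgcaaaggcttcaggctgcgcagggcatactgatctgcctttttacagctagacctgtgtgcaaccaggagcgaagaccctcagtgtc
Dmd, chrX:82948620-82948919, plus strand: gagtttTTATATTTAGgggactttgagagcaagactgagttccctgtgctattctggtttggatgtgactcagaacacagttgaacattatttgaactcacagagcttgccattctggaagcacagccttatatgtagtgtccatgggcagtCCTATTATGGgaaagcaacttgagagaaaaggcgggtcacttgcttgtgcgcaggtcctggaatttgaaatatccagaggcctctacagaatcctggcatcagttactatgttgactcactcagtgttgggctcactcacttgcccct

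Of the 25 genes, 20 were matched to 24 promoters in the table, and 5 of the promoters (20.8%) held a MEF2 box on either strand, against 3.19% of all 32851 promoters of this length. The fifth was that of the non-coding gene *Gm39033*. A CArG box was in 1 of the 24 (4.17%; 1.63% of all promoters). The letters CATTCC of the MCAT element were in 5 (20.8%; 14.7% of all) and an E-box (CANNTG) in 16 (66.7%; 72.3% of all). In the 125 promoters matched to the 145 leading genes the shares were 7.20%, 4.00%, 11.2% and 68.0%. These are matches of letters and not bound sites.

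Across genes, 11656 had a mean of at least 20 CPM over the untreated libraries in at least 1 of the 10 cell types. A gene was said to lead in a cell type if that type had the highest level in each of the 3 untreated libraries and a mean at least 2-fold above that of the next type. By this rule 145 genes led in sphincter 1 (1.24%). The other 9 types had between 32 (sphincter 2) and 790 (leukocytes) leading genes, with 34 in dilator muscle. The 145 genes together made up 52228, 43663 and 46801 CPM of sphincter 1 in replicates 1 to 3, against a mean of 11218 CPM in sphincter 2 and between 2435 and 4121 CPM in the other types. A gene that passed the level of 20 CPM through sphincter 1 alone had to be highest there, so the shares below, which are of the genes compared, leave out listed genes that were low in every type.

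The rule has no gap at its edge. *Steap1* and *Eya4*, at 2.01-fold over the next type, were just inside, and *Katnbl1* (1.996-fold) and *Sema3a* (1.98-fold) just outside. A further 174 genes were highest in sphincter 1 of all 3 libraries by less than 2-fold, and 8 were 2-fold higher in the mean but not first in every library. For 61 of the 145 genes the next type was sphincter 2, for 22 leukocytes, for 15 stroma 2, and for 6 dilator muscle.

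**Figure D3:**
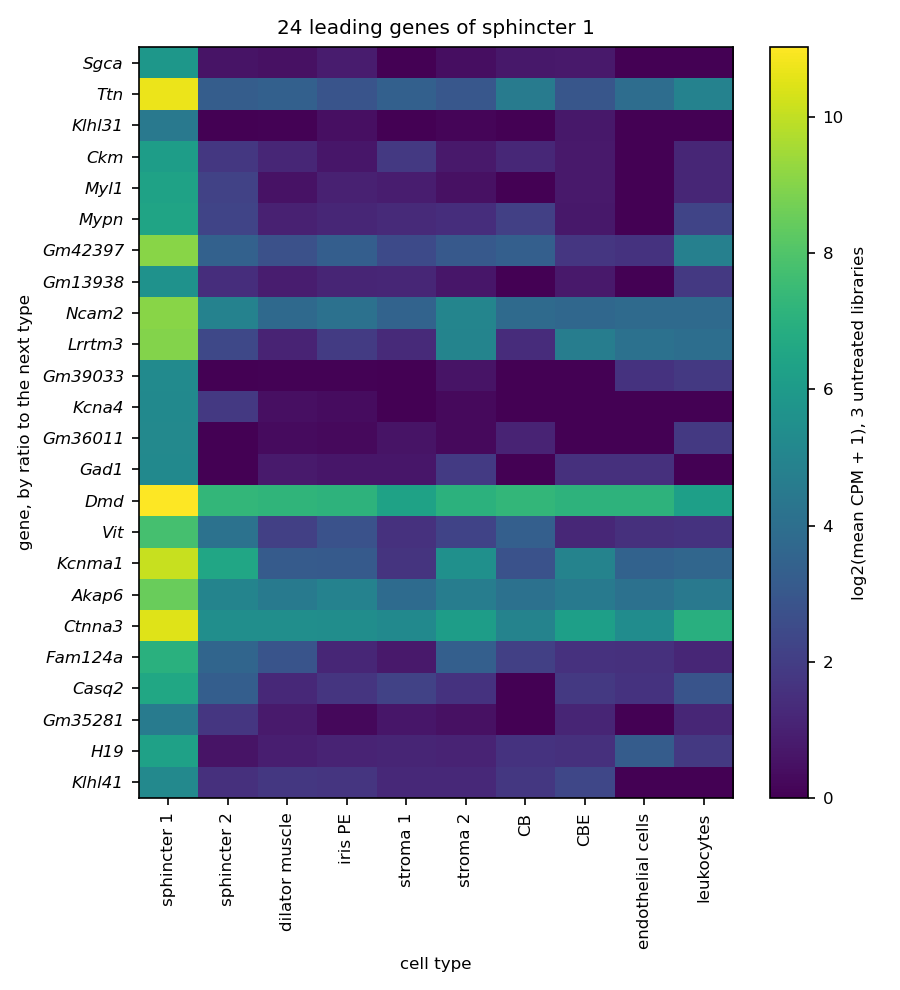
Mean level over the 3 untreated libraries, as log2(CPM + 1) on the colour scale, of 24 of the 25 leading genes with the largest ratio to the next type (rows, in that order) in the 10 cell types (columns). The sphincter 1 column is the brightest in each row, from 20.7 CPM for *Klhl31* to 2087 CPM for *Dmd*, and the sphincter 2 column is at most 90.7 CPM for *Kcnma1* and 155 CPM for *Dmd*.

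The 25 genes with the largest ratio hold sarcomere proteins, adhesion proteins, ion channels and non-coding RNAs. *Sgca* (alpha-sarcoglycan, a subunit of the dystrophin complex) was at 75.3, 49.4 and 45.1 CPM with the next type, iris pigment epithelium (iris PE), at 0.774 CPM, a 73.2-fold ratio. From pooled UMIs it was 65.1 (9 UMIs in iris PE; 95% interval 32.9 to 146.8). Endothelial cells and leukocytes had 0 UMIs of *Sgca*. In these types 3 UMIs correspond to 7.82 and 6.58 CPM, so the ratio to them is less firmly bounded. *Klhl31* (a kelch protein of skeletal muscle) was at 21.5, 14.4 and 26.2 CPM. *Mypn* (myopalladin, a Z-disc protein that tethers nebulin) was at 75.3, 78.1 and 102.9 CPM. In both genes the next type held 3 UMIs or fewer, so that the pooled ratio of 28.2 for *Klhl31* has a 95% interval of 4.80 to 1141, and that of 14 for *Mypn* one of 4.71 to 68.5. Intervals of this kind cover counting error only.

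*Akap6* (mAKAP, a scaffold at the nuclear envelope of muscle cells) was at 392.5, 322.1 and 359.3 CPM, 11.8-fold above sphincter 2. *Ncam2*, a neural adhesion molecule, was at 537.6, 478.4 and 594.0 CPM, 17.1-fold above stroma 2. *Gad1*, which makes GABA, was at 10.8, 54.2 and 44.2 CPM, with its lowest level in the thinnest untreated library. *Vit* (vitrin, a matrix protein) and *Fam124a* had mean levels of 216 ± 97.4 and 126 ± 16.4 CPM (SD, n = 3 libraries). *H19*, an imprinted non-coding RNA of fetal tissue and muscle, was at 134.4, 47.8 and 54.2 CPM, and replicate 1 was the highest. Its next type held 2 UMIs, and the pooled ratio was 11.5 (95% interval 3.11 to 95.9).

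Of the leading genes, 121 are protein coding, 11 long intergenic RNAs and 10 antisense RNAs in the annotation. Their median span was 51.8 kb, against 32.4 kb for all genes compared. The leading *Gm42397*, *Gm39033* and *Gm36011* lie together at chr7:70870913-71123594, and *Gm42397* was at 645.1, 424.1 and 515.4 CPM. In 9 pairs, leading genes overlap on opposite strands. *Lrrtm3* lies within *Ctnna3*, *Gm13938* within *Ttn* and *A930016O22Rik* within *Ckm*, and *Gm26861* overlaps *Chrm3*. Whether the counting used strand is not given in the sources used here, so reads of such partners may not be separable.

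The comparison with sphincter 2 asked what sets the muscle types of the sphincter apart. At a mean of 20 CPM in either type, 8350 genes were compared. Sphincter 1 was at least 2-fold higher in the mean and higher in every library for 491 genes (5.88%) and lower for 551 (6.6%). Under TMM scaling the median of all genes shifted by 0.11 on the log2 scale, and the split changed from 47.1% to 58.4% higher (585 higher and 417 lower). The 491 include the 145 leading genes, as the rule for these requires. The lower genes numbered 847 without replicate 2 and 842 without replicate 3.

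By the ratio of library means, *Ttn*, *H19*, *Lrrtm3*, *Sgca* and *Rhoh* came first against sphincter 2. Neither their order nor their place among the first 5 is firm, since all but *Ttn* had 3 UMIs or fewer in sphincter 2 and genes with 0 UMIs there were ranked by a floor of 3 UMIs over the group. *Trim55*, with 141 UMIs in sphincter 1 and 0 in sphincter 2, ranked 15th on this account, at least 31.0-fold higher. From pooled UMIs the ratio was 184 for *Ttn* (11 UMIs; 95% interval 102.8 to 369.4), 75.7 for *H19* (1 UMI; 13.3 to 3015), 216 for *Lrrtm3* (3 UMIs; 73.8 to 1051), 62.5 for *Sgca* (1 UMI; 10.95 to 2495) and 68.1 for *Rhoh* (2 UMIs; 18.6 to 566). *Ttn* was at 9.16, 4.16 and 11.9 CPM in the libraries of sphincter 2. *Lrrtm3*, a synaptic adhesion protein, was at 526.9, 448.1 and 547.9 CPM in sphincter 1. *Rhoh*, a small GTPase of blood cells, was at 80.6, 114.8 and 108.3 CPM in sphincter 1.

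On the other side, *Aadat* (an aminotransferase), *4933406B17Rik*, *Wif1* (a secreted WNT inhibitor), *Bmp5* (a BMP ligand) and *AC129186.1* came first by the same measure, and again their order and place are not firm. *G930009F23Rik*, with 0 UMIs in sphincter 1 against 17, was ranked by the floor and came after them. *Aadat* rested on 2 UMIs in sphincter 1 against 24, and its sphincter 2 levels were 55.0, 14.6 and 16.3 CPM. From pooled UMIs the ratio was 0.0548 for *Aadat* (95% interval 0.00628 to 0.221), 0.0548 for *4933406B17Rik* (0.0144 to 0.150), 0.0411 for *Wif1* (0.0287 to 0.0574), 0.0537 for *Bmp5* (0.0141 to 0.147) and 0.0537 for *AC129186.1* (0.0448 to 0.0641), so that the intervals overlapped. *Wif1* was at 16.1, 30.3 and 13.5 CPM in the libraries of sphincter 1, whereas those of sphincter 2 had 540.6, 324.6 and 558.9 CPM. For *AC129186.1* the levels were 59.1, 90.9 and 60.5 CPM, whereas sphincter 2 had 1145, 1267 and 1362 CPM. The groups of libraries did not overlap for either gene.

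Against dilator muscle, 8436 genes were compared, of which 818 (9.7%) were higher and 979 (11.6%) lower in sphincter 1. By the ratio of library means *Gm39033*, *Lrrtm3*, *Ptchd1*, *Klhl31* and *Trim55* came first, in an order that is not firm, since all but *Lrrtm3* had 1 or 2 dilator UMIs. From pooled UMIs the ratio was 454 for *Gm39033* (95% interval 78.3 to 18230), 454 for *Lrrtm3* (282 to 782), 305 for *Ptchd1* (81.7 to 2564), 329 for *Klhl31* (55.9 to 13290) and 1103 for *Trim55* (195 to 43880). The dilator level of *Lrrtm3* was 1.15 CPM (17 UMIs). *Trim55* (MURF2, a ubiquitin ligase of the sarcomere) was at 86.0, 51.0 and 84.0 CPM with 1 UMI among 4357 dilator nuclei. On the lower side *Abcc2* (an organic anion transporter, 1.66 against 62.9 CPM), *4930545L23Rik*, *Gm13561*, *5830418P13Rik* and *Rab3b* (a vesicle GTPase, 2.04 against 45.1 CPM) came first, with 4 to 14 UMIs in sphincter 1.

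Of 77 genes of striated muscle listed for this description, 65 were in the tables, 23 were compared and 12 led in sphincter 1 (52.2% of those compared). Over all genes compared, 1.24% led. With the rule applied to all 8 libraries, treated ones included, 5 of the list led. Of the 23, 16 were higher than in sphincter 2 and 0 lower (5.88% and 6.6% over all genes), counts to which genes that reached 20 CPM through sphincter 1 alone contributed. The list reached unevenly into the sarcomere. From the thick filament and titin group *Ttn*, *Mybpc1* and *Myl1* (an alkali light chain of fast myosin; 69.9, 68.6 and 104.7 CPM) led. None of the 13 thin filament genes in the tables reached a mean of 20 CPM in any cell type: skeletal actin *Acta1* had 1 UMI in sphincter 1, and the most abundant, troponin *Tnnc2*, was at 21.5, 7.97 and 10.8 CPM with 0 UMIs in sphincter 2. Of the sarcomeric myosin heavy chains in the tables, *Myh3*, *Myh7b* and *Myh13* had 0 UMIs, *Myh8* 1, *Myh7* 2 and *Myh6* 5.

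At the Z-disc, *Ldb3* (cypher, which binds alpha-actinin) was at 435.5, 234.4 and 271.7 CPM, 7.18-fold above sphincter 2, and *Cmya5* (myospryn) at 129.0, 138.7 and 116.4 CPM. Their partner *Actn2*, the alpha-actinin of sarcomeres, had 5 UMIs. *Nebl* (nebulette) was at 545 ± 13.3 CPM, above the 168 ± 16.9 CPM of sphincter 2 but below CB, at 1236 CPM. Of the energy and triad group, *Ckm* (muscle creatine kinase) was at 37.6, 89.3 and 83.05 CPM, *Pygm* (muscle glycogen phosphorylase) at 112.9, 94.1 and 73.1 CPM, *Casq2* (the calcium store protein of the heart) at 86.0, 87.7 and 111.9 CPM and *Jph1* (junctophilin, which ties the store to the membrane) at 86.0, 71.8 and 100.2 CPM. All 4 led, whereas myoglobin *Mb* had 4 UMIs and the pump *Atp2a1* 7.

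Among the regulators, *Myf6* (MRF4, a myogenic factor of differentiated skeletal muscle) was at 48.4, 28.7 and 38.8 CPM. It had 0 UMIs in sphincter 2. Its next type, leukocytes, rested on 1 UMI (3.50-fold by library means; pooled ratio 16.6, 95% interval 2.88 to 665). Myogenin (*Myog*) had 0 UMIs in sphincter 1. *Smyd1* (a methyltransferase needed for myofibrils) was at 64.5, 76.5 and 62.3 CPM. *Klhl41* (which stabilises thin filament proteins) was at 16.1, 47.8 and 43.3 CPM, and its lowest value was again that of the thinnest untreated library.

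**Figure D4:**
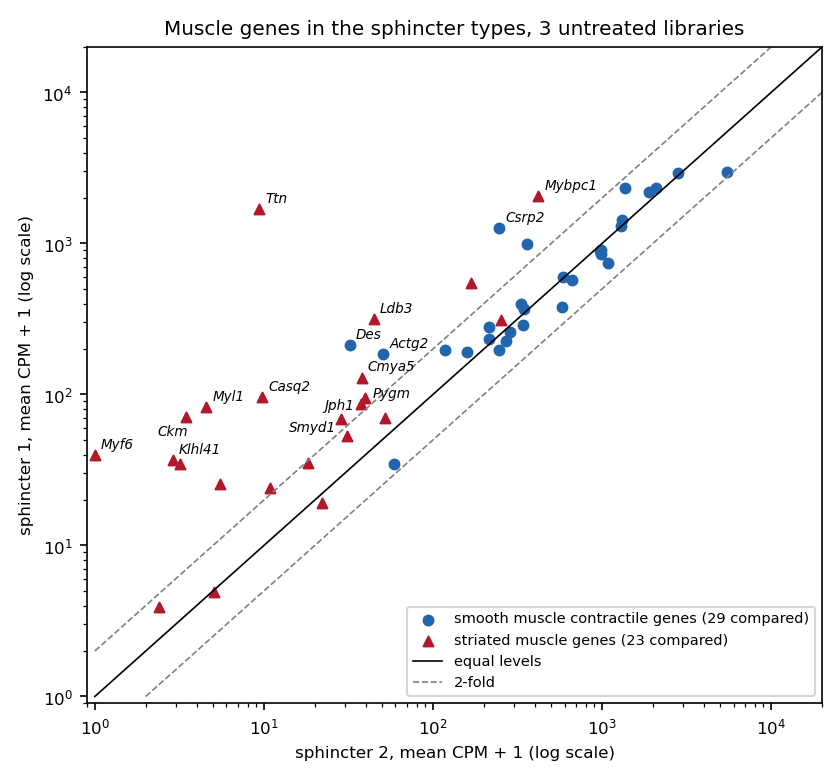
Mean level over the 3 untreated libraries (CPM + 1, log scales) in sphincter 2 (horizontal) and sphincter 1 (vertical) of the compared members of the striated muscle list (23 triangles) and the smooth muscle list (29 circles), with leading genes labelled. Most circles lie between the dashed lines of a 2-fold difference, while 16 triangles were higher in sphincter 1 and none lower.

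Of 30 smooth muscle contractile genes, 29 were compared. In sphincter 1, 3 of them led (10.3%, against 1.24% of all genes) and 4 were higher than in sphincter 2, with 0 lower (5.88% and 6.6% of all genes). The median log2 difference to sphincter 2 was 0.07, and -0.10 over all genes. *Myh11* (smooth muscle myosin) was at 3193, 2966 and 2660 CPM and *Acta2* (smooth muscle actin) at 1634, 1158 and 1138 CPM in sphincter 1, next to 2801 ± 344 and 1294 ± 237 CPM in sphincter 2. The 3 leading members were *Csrp2* (a LIM protein; 1124, 1379 and 1286 CPM, 5.13-fold above sphincter 2), *Des* (desmin; 268.8, 188.2 and 176.9 CPM, 6.77-fold) and *Actg2* (enteric actin; 220.4, 162.6 and 170.6 CPM, 3.69-fold). Compared with dilator muscle, 15 members were higher, among them calponin *Cnn1* (197 against 8.65 CPM), and 2 lower (9.7% and 11.6% of all genes). One of these was *Mylk*, the myosin light chain kinase, at 2982 ± 131 CPM, under sphincter 2 (5456 ± 386 CPM) and the dilator (8212 ± 320 CPM). *Ppp1r12a*, the targeting subunit of the opposing phosphatase, ran the other way, at 2337 ± 231, 1374 ± 128 and 433 ± 18.4 CPM.

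Between genes, levels were also expressed per kb of gene span. Span is not the length of the RNA, and how far the counts rise with span was not tested. The order of genes on this scale is therefore not firm. On that scale *Myl6* was at 174, *Tagln* at 116 and *Acta2* at 90.3 CPM per kb, and the leading *Csrp2*, *Des* and *Actg2* at 63.7, 25.6 and 7.90. Of the striated genes, *Mybpc1* was at 23.6, *Myf6* at 20.5, *Ttn* at 6.04 and *Ckm* at 3.87 CPM per kb, so that the ranges of the lists overlapped on this scale.

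Of 17 regulators of muscle transcription, 16 were compared and none led (1.24% of all genes did), with 3 higher than in sphincter 2 (5.88% of all genes). *Myocd* (myocardin, the coactivator of SRF in smooth muscle) was at 1016, 812 and 859 CPM, against 638 ± 183.5 CPM for sphincter 2 and only 32.99 ± 5.66 CPM for the dilator. The 3 that were higher than in sphincter 2 were *Hdac9*, *Hdac5* and *Mef2c*. *Hdac9*, a class IIa deacetylase that binds MEF2, was at 1086, 714 and 898 CPM, against 87.8 ± 11.2 CPM in sphincter 2, while leukocytes held 1360.5 CPM. *Mef2c* was at 48.4, 23.9 and 28.9 CPM, against 2.18 ± 2.23 CPM in sphincter 2, and leukocytes held 1946 CPM.

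In the dystrophin complex, 24 of 25 listed genes were compared and 3 led (12.5%, against 1.24% of all genes). Compared with sphincter 2, 8 were higher and 1 lower (5.88% and 6.6% of all genes). The log2 ratio of dystrophin to sphincter 2 was 3.75, whereas its homologue utrophin (*Utrn*) was at 258 ± 28.1 CPM and thus under sphincter 2 (486 ± 45.3 CPM) and the dilator (654 CPM). Of the sarcoglycans, *Sgca* led, *Sgcd* was higher than in sphincter 2 (463 ± 69.5 against 183 ± 65.7 CPM), and *Sgcb* (20.9 ± 1.76 CPM) and *Sgce* (97.8 ± 13.03 CPM) were not called in either direction. *Cav3*, the caveolin of striated muscle, was at 26.9, 33.5 and 33.4 CPM, and *Cav1* at 15.6 ± 5.56 CPM. The laminin chains were split, with *Lama4* at 35.1 CPM against 0.694 in sphincter 2 (74 UMIs against 1) and *Lama2* lower, at 94.5 ± 12.6 against 331 ± 13.01 CPM.

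Of 18 junction genes compared of 20 in the tables, *Ctnna3* alone led (5.56%, against 1.24% of all genes). The other alpha-catenins were at 100.3 ± 1.88 CPM (*Ctnna1*) and 23.7 ± 19.4 CPM (*Ctnna2*). Per kb of gene span, a scale with the limit given above, *Ctnna3* was at 0.913, *Ctnna1* at 0.738 and *Ctnna2* at 0.0216 CPM. *Cdh13* (T-cadherin) was at 150.5, 105.2 and 107.4 CPM, against 5.43 ± 3.29 CPM in sphincter 2, but was not called as leading because stroma 1 held 79.1 CPM. The connexins *Gja1* (547 ± 34.7 CPM) and *Gjc1* (51.3 ± 9.33 CPM) were each within 2-fold of sphincter 2.

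Among 39 receptors of neurotransmitters and hormones in the tables, 18 were compared and *Chrm3* led (5.56%, against 1.24% of all genes). Without doublets *Tacr1* led as well. *Chrm2*, which couples to Gi, was at 333, 274 and 338 CPM, between its levels in sphincter 2 (195 ± 14.98 CPM) and dilator muscle (630 ± 48.4 CPM). Of the tachykinin receptors, *Tacr3* was at 1059, 1032 and 1061 CPM (841 ± 34.7 CPM in sphincter 2) and *Tacr1*, the substance P receptor, at 430, 249 and 299 CPM, against 115 ± 44.5 CPM in sphincter 2. Lower than in both other muscles were the adrenergic receptor *Adra1a* (5.38, 12.8 and 48.7 CPM, against 226 ± 26.9 and 479 ± 25.8 CPM), the nicotinic subunit *Chrna7* (16.1, 17.5 and 15.3 CPM, against 53.5 ± 1.48 and 111 ± 10.7 CPM) and the VIP receptor *Vipr2* (7.85 ± 4.25 CPM). For *Adra1a* replicate 3 was far above the other libraries.

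In a list of G proteins, RGS proteins, phospholipase C and kinases, not all of them specific to Gq, 19 of 22 genes were compared. Of these, 2 led (10.5%, against 1.24% of all genes). *Rgs7*, an RGS protein of neurons, was at 198.9, 126.0 and 106.5 CPM (4.93-fold above leukocytes), and *Dgkg*, a diacylglycerol kinase, at 53.8, 113.2 and 93.9 CPM (7.52-fold above iris PE). The phospholipase C *Plcb4* was at 2820 ± 101 CPM, lower in the mean than the 4402 ± 497 CPM of sphincter 2 but by less than 2-fold. Protein kinase C differed by isoform, with *Prkcb* at 99.9 ± 46.3 CPM against 452 ± 65.0 CPM in sphincter 2, and *Prkca* and *Prkce* called in neither direction.

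In calcium handling, 32 of 42 genes were compared and 2 led (6.25%, against 1.24% of all genes), while 7 were higher than in sphincter 2 and 1 lower (5.88% and 6.6% of all genes). *Cacnb2*, a subunit of voltage-gated calcium channels, was at 1908, 1367 and 1500 CPM, and its pore partner *Cacna1c* (the L-type channel of smooth muscle and heart) was at 219 ± 15.9 CPM, against 57.4 ± 29.8 CPM in sphincter 2. *Cacna1d*, another L-type pore, was at 414 ± 23.3 CPM and 479 ± 114 CPM in these types. *Atp2a2*, the pump that refills the store (SERCA2), was at 866, 855 and 818 CPM, 2.67-fold above sphincter 2 (317 ± 14.3 CPM). The release channels *Itpr1* (1362 ± 273 CPM) and *Ryr3* (1369 ± 216 CPM) were highest in sphincter 1 by less than 2-fold, and the sodium-calcium exchanger *Slc8a1* was at 270 ± 64.4 CPM, above sphincter 2 (62.7 ± 31.9 CPM) and below leukocytes (1254 CPM).

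Of 25 potassium channel genes compared of 36 in the tables, 2 led (8%, against 1.24% of all genes). *Kcnma1*, the pore of the large-conductance calcium-activated (BK) channel, was at 1538, 818 and 918 CPM, 12.03-fold above sphincter 2. Its smooth muscle subunit *Kcnmb1* did not follow, at 66.7 ± 12.8 CPM next to 61.2 ± 13.5 CPM for sphincter 2. Both genes were lower in dilator muscle, with *Kcnma1* at 8.02 ± 1.17 CPM (114 UMIs) and *Kcnmb1* at 0.515 CPM. *Kcnd3*, an A-type channel, was at 683, 424 and 439 CPM. *Kcnip4*, an auxiliary subunit, was lower than in sphincter 2 (773 ± 130 against 3250 ± 43.9 CPM). *Kcna4*, a further A-type channel outside the list but among the 25 leading genes, was at 37.6, 38.3 and 35.2 CPM.

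The neuronal and exocytosis list had 6 leading genes of 44 compared (13.6%, against 1.24% of all genes) and 67 in the tables. *Syt1* (synaptotagmin, a calcium sensor of exocytosis) was at 4855, 4211 and 4425 CPM, 2.13-fold above sphincter 2. *Sh3gl2* (endophilin, for vesicle recycling) was at 1150, 997 and 1049 CPM, *Rbfox3* (an RNA-binding protein of neurons) at 892, 713 and 699 CPM, *Kctd16* (a GABA-B receptor subunit) at 796, 659 and 659 CPM, and *Nptx2* (neuronal pentraxin) at 124, 112 and 100 CPM. Against sphincter 2, 9 members were higher and 8 lower (5.88% and 6.6% of all genes). Among the lower ones were *Unc13c* (271 ± 49.3 against 1610 ± 276 CPM), which primes vesicles, and *Dlg2* (428 ± 77.4 against 1003 ± 250.5 CPM), a synaptic scaffold.

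For relaxation, 25 genes were compared of 27 in the tables, and for eye and neural crest transcription factors all 23 found. None of either list led, next to 1.24% of all genes. Under TMM scaling, and also without doublets, 1 relaxation gene led (*Adcy5*, an adenylyl cyclase). *Gucy1a1*, a subunit of the nitric oxide receptor, and *Prkg1*, the cGMP-dependent kinase, were at 81.7 ± 34.0 and 984 ± 141 CPM, against 12.2 ± 2.85 and 359 ± 65.7 CPM in sphincter 2. *Pax6*, which specifies the eye, was at 1118, 1343 and 1314 CPM and close to sphincter 2 (1408 ± 129 CPM) and dilator muscle (1506 ± 152 CPM). *Six3* was at 41.6 ± 10.5 CPM with 1 UMI in sphincter 2, whereas *Otx2* was lower than in sphincter 2 (120 ± 8.76 against 395 ± 65.2 CPM).

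Markers of other cells were summed in sphincter 1. The 10 skeletal myonuclear markers in the tables reached 26.9, 33.5 and 30.7 CPM in replicates 1 to 3 (60 UMIs), most of all *Tnnc2* (13.4 CPM), and *Myh3*, *Myh13* and *Myog* were at 0. The 5 cardiac markers had 16 UMIs in all (11.5 CPM), with *Tnni3* at 0. The 8 markers of vascular smooth muscle and pericytes reached 58.5 ± 16.9 CPM, mostly *Cspg4*, and *Rgs5* and *Higd1b* were at 0. The 7 markers of neurons had 15 UMIs (11.2 CPM), with *Chat*, *Nefl* and *Snap25* at 0.

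Leukocyte and endothelial markers were at 59.2 and 43.7 CPM, against 8837 and 8543 CPM in their own types. Those of stroma 1 and stroma 2 were at 601 ± 215 and 211 ± 56.0 CPM (323 and 129 CPM without doublets), against 24820 and 8417 CPM, and most of the former was *Dct* (586 CPM). Those of iris PE were at 737 ± 206 CPM (524 without doublets; *Trpm1* most abundant), against 5338 CPM in iris PE and 7075 CPM in stroma 1, so that they do not mark iris PE alone. Those of dilator muscle were at 782 ± 35.4 CPM (738 without doublets), against 3312 CPM, of which *Chrm2* made up 315 CPM. None of these 6 lists had a member at 0. Their part in single values was not tested beyond the counts without doublets.

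Whether the identity genes respond to treatment was asked with summed UMIs of sphincter 1 in all 8 libraries. At an adjusted p under 0.05 and a log2 change beyond 0.6 (edgeR quasi-likelihood test, Benjamini-Hochberg over 7112 genes), constriction changed 0 genes. For this comparison 451 genes had an unadjusted p under 0.05 in the edgeR test, where 355.6 are expected without any change. DESeq2 called 14, and with the series of consecutive library numbers as a block 23 were called. Of the 145 leading genes 138 could be tested, and DESeq2 called 3 of them after constriction. After dilation 45 genes (0.633%) were higher and 94 (1.32%) lower than in untreated libraries, and 43 leading genes were lower and 0 higher. Since the same untreated libraries chose the leading genes, the dilated libraries were also compared with the constricted ones, which the choice did not use. Of all genes, 74 (1.04%) were higher and 189 (2.66%) lower, and of the leading genes 60 were lower and 1 (*2900055J20Rik*) higher. The 139 calls of dilated against untreated libraries rose to 325 with this block and to 211 with only these groups in the fit. Without the nuclei of shared barcodes they numbered 143. They fell to 86 with DESeq2, to 71 and 45 without untreated replicate 2 or 3, and to 61 and 41 without dilated replicate 1 or 2. The 263 calls of dilated against constricted libraries fell to 122 and 111 without dilated replicate 1 or 2.

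Of the 5 markers, *Ttn* was at 1777, 3159 and 2468 CPM in the constricted libraries and at 393 and 510 CPM in the dilated ones. The groups did not overlap, and the log2 change of dilated against constricted was -2.43 ± 0.27 (SE; edgeR adjusted p = 1.18e-05). The next values in parentheses are for the same comparison. *Ctnna3* was at 1613, 2657 and 1400 CPM and at 545 and 586 CPM, again without overlap (-1.72 ± 0.25; edgeR adjusted p = 0.000226). *Dmd* was at 2659, 3474 and 2601 CPM and at 1623 and 1401 CPM (-0.94 ± 0.22; edgeR adjusted p = 0.0130). *Mybpc1* was at 2060, 3281 and 2475 CPM and at 1197 and 1643 CPM (-0.86 ± 0.23; edgeR adjusted p = 0.0400). *Chrm3* was at 4601, 3420 and 2415 CPM and at 5203 and 3971 CPM, with overlapping groups and no call (0.41 ± 0.22; edgeR adjusted p = 0.460). Against the untreated libraries, 2 of the 5 markers were lower after dilation, *Ttn* (-1.84 ± 0.27; edgeR adjusted p = 0.000499) and *Ctnna3* (-1.30 ± 0.25; edgeR adjusted p = 0.00541). *Dmd* (-0.42 ± 0.21; edgeR adjusted p = 0.498) and *Mybpc1* (-0.49 ± 0.23; edgeR adjusted p = 0.457) were not called there. Their constricted levels lay above the untreated ones by 0.51 ± 0.19 and 0.37 ± 0.20 on the log2 scale, without a call. In the comparison with constricted libraries, the call of *Dmd* was lost without dilated replicate 1 or 2 (edgeR adjusted p = 0.0871 and 0.155). Its log2 change stayed between -1.01 and -0.78 when each library was left out. The call of *Mybpc1* was lost without dilated replicate 1 (edgeR adjusted p = 0.443), without constricted replicate 2 or 3 (0.104 and 0.0529) and without doublets (0.0786). Its change stayed between -1.14 and -0.59 when each library was left out.

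Of the 12 leading striated genes, 10 were lower in the dilated than in the constricted libraries, against 60 of the 138 tested leading genes (43.5%) and 2.66% of all genes. *Ckm* (-0.44 ± 0.38) and *Smyd1* (-1.36 ± 0.42) were not called. DESeq2 called 9 of the 12. Against the untreated libraries 8 of the 12 were lower (5 by DESeq2), and *Mybpc1*, *Jph1* (-0.88 ± 0.36; edgeR adjusted p = 0.322), *Ckm* and *Smyd1* were not called. *Casq2* was at 102, 169.5 and 116 CPM after constriction and at 21.8 and 32.3 CPM after dilation. *Myf6* was at 23.0, 48.4 and 73.0 CPM after constriction and had 0 UMIs in both dilated libraries, at least 12.8-fold lower by the floor of 3 UMIs over both. Of the 6 leading genes of the neuronal list, *Lrrtm3* (-1.49 ± 0.23; edgeR adjusted p = 0.000336) and *Sh3gl2* (-0.99 ± 0.25; edgeR adjusted p = 0.0254) were lower, and *Syt1* (0.20 ± 0.21), *Rbfox3* (-0.33 ± 0.23), *Nptx2* (0.45 ± 0.26) and *Kctd16* (0.28 ± 0.24) were not called. Of the 3 leading smooth muscle genes, *Csrp2* (-1.36 ± 0.27; edgeR adjusted p = 0.00424) was lower, and *Des* (-0.31 ± 0.25) and *Actg2* (-0.46 ± 0.24) were not called. Against the untreated libraries, *Lrrtm3* alone of these 9 genes was lower (-1.04 ± 0.22; edgeR adjusted p = 0.0128), and *Sh3gl2* (-0.87 ± 0.25; edgeR adjusted p = 0.0797) and *Csrp2* (-0.84 ± 0.26; edgeR adjusted p = 0.135) were not called. Whether the lists differed in their response was not tested. The median log2 change of the 138 tested leading genes was -1.03 for dilated against constricted libraries, -0.89 for dilated against untreated and 0.17 for constricted against untreated. Markers of other types were compared in the same nuclei. Their median for dilated against constricted was 0.80 for dilator muscle (5 tested, 2 below 0). It was 0.30 for iris PE (5, 1 below 0), -0.08 for stroma 2 (5) and 1.28 for stroma 1 (1). For dilated against untreated it was -0.45, -0.16, -0.22 and 0.65. Only *Chrm2* (both comparisons) and *Sv2b* (against untreated) were called, each lower. Their part in the fall was not tested.

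**Figure D5:**
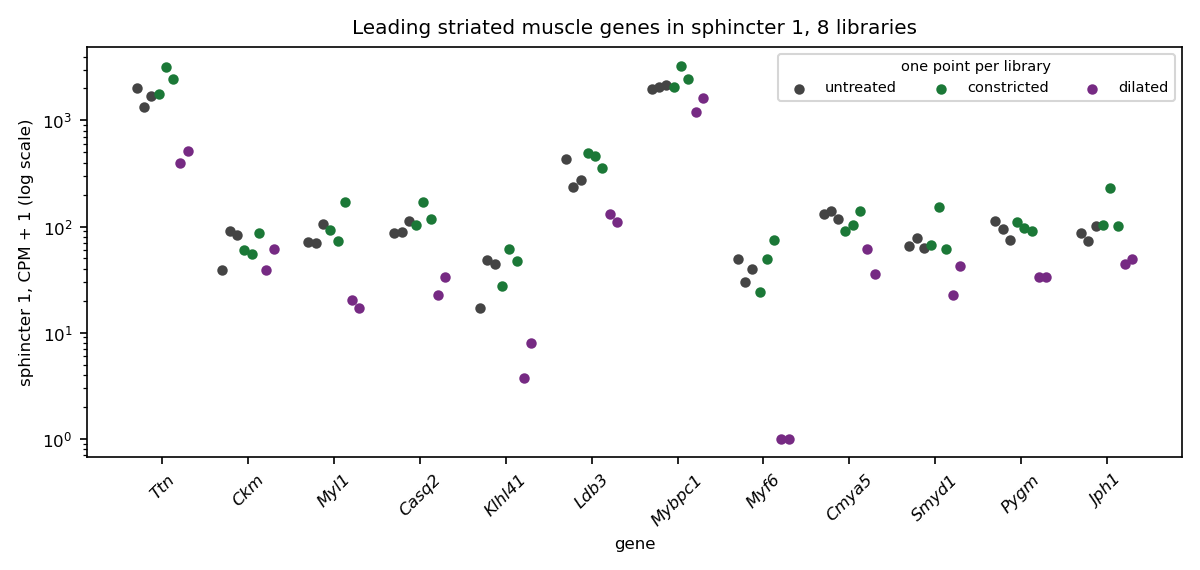
Level in sphincter 1 (CPM + 1, log scale) of the 12 leading genes of the striated muscle list, with 1 point for each untreated (grey), constricted (green) and dilated (purple) library. The 2 dilated points are the lowest for most genes, such as *Ttn* at 393 and 510 CPM and *Myf6* at 0 UMIs, whereas for *Ckm* they overlap with the untreated points.

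The place of the leading genes among cell types was also compared. In the constricted libraries 137, 139 and 135 of the 145 were higher in sphincter 1 than in any other type, and in the dilated libraries 107 and 110. In each of the 5 treated libraries 81 were highest (55.9%), in their mean 113 were highest by at least 2-fold (77.9%), and 78 met the whole rule over all 8 libraries. The median log2 ratio to the next type over these genes was 1.57, 1.87 and 1.46 in the constricted libraries and 0.78 and 0.96 in the dilated ones. In the untreated libraries, whose values chose the genes, it was 1.71, 1.53 and 1.76.

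Sphincter 1 made up 3.81%, 3.03% and 4.95% of the iris nuclei (those other than CB and ciliary body epithelium) of the untreated libraries, 2.62%, 3.05% and 2.83% of the constricted and 1.65% and 3.78% of the dilated ones. The untreated mean of 3.93% ± 0.964 (SD, n = 3) was higher than the 2.79% ± 0.770 (SD, n = 5) of the treated libraries (treated minus untreated -1.15 percentage points), a difference within the spread of the libraries (two-sided exact permutation p = 0.107; the smallest p this design allows is 0.0179; adjusted over 3 comparisons 0.300). The comparisons with constricted (exact permutation p = 0.2) and dilated libraries (p = 0.400) cannot go below 0.100. Without untreated replicate 2 the difference from the treated libraries was -1.60 percentage points (exact permutation p = 0.0476 before adjustment). This is the smallest p that the reduced design allows.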

How the data were processed

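Single nuclei of the iris were measured in 8 libraries, each a separate pool. The authors mapped reads to mm10, introns included, and counted UMIs per gene and nucleus (Cell Ranger 3.1.0 and Seurat, per the submitters' processing notes), and removed nuclei with over 1% mitochondrial transcripts, fewer than 500 or more than 6000 transcripts. The deposited values used here are these UMI counts with the authors' cell type of each nucleus. The UMI totals in the deposited annotation were equal to those of the matrices in 92.1% of nuclei and at most 13 higher. The deposited percent of mitochondrial UMIs was read only as a check. Handling of doublets and use of strand in counting are not given in the sources used here.

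For each library and cell type, UMIs were summed and divided by their total (CPM). Between cell types no test was made, since these counts defined the types. Treatments were compared with edgeR 4.0.16 (TMM, filterByExpr, quasi-likelihood test, all 8 libraries in 1 fit, Benjamini-Hochberg adjustment), with DESeq2 1.42.0 as an alternative. Doublets were called per library with Scrublet in scanpy 1.11.5. The p-values measure the spread between pools. Intervals and floors (3 UMIs) cover counting error only. Gene spans and strands are from GENCODE, matched by name for 22462 of 22873 genes, and promoters from RefSeq.

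Genes named are the 5 markers, the 25 leading genes of largest ratio to the next type, the leading and most abundant members of each gene list with their family members, and the 5 genes of largest ratio in each direction against sphincter 2 and dilator muscle. Other names, such as those at the edge of the rule, were chosen after their values were seen. Nuclei, markers, lists and tests were chosen with earlier results of these data known. On simulated data 197 of 200 genes changed 4-fold were recovered among 9935 genes for the leading genes, with 0 false, and 197 of 200 among 6875 genes for dilated against untreated, with 8 false. The alternatives were other scalings, level and fold minimums, a mean over nuclei, removal of doublets or shared barcodes, other fits, and leaving out each library. Replicate numbers did not pair the libraries. Libraries were processed in 5 batches and 2 sequencing runs, and each condition was spread over several batches and both runs. Which library belonged to which is not given in the sources used here, so no batch term was fitted. Single genes that these rules would name, and 1 list of markers, are not reported here.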

Additional observations from a re-analysis of the deposited data

How the results depend on the processing

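The 145 leading genes numbered 84 (78 shared) when all 8 libraries were used and 62 at 4-fold over the next type, and 147 to 157 without each replicate in turn. With no minimum level, 1022 genes were higher and 1055 lower than in sphincter 2, and 1414 higher and 3579 lower than in dilator muscle. Leaving out each replicate gave 479 to 847 genes lower than in sphincter 2. For constricted against untreated libraries the 0 calls became 14 with DESeq2, 28 with no filter on low counts, 23 with the series of consecutive library numbers as a block, 3 without doublets, and 0 to 7 when each library was left out. For dilated against untreated libraries the 139 calls became 86 with DESeq2 (80 shared), 210 with no filter (135 shared), 325 with the series block (139 shared), 211 with only these groups in the fit (138 shared), and 41 to 117 when each library was left out. Dilated against constricted libraries gave 111 to 241. With the replicate number as a block, 3, 124 and 232 genes were called in the 3 comparisons. Deviations of libraries with the same number correlated with r between -0.0728 and 0.178, so the numbers were not taken to pair the libraries. Between groups, deviations of libraries of the same series of consecutive numbers correlated with r between 0.0154 and 0.213. For libraries of different series r was between -0.213 and 0.096. What the series stand for was not tested. The change of *Chrm3* after constriction was -0.17 on the log2 scale and ranged from -0.39 to 0.036 when each library was left out, with the sign turned without constricted replicate 3 (edgeR adjusted p = 0.986). The share of iris nuclei differed by -1.60 to -0.636 percentage points when each library was left out. The first value was that without untreated replicate 2 (exact permutation p = 0.0476, the smallest that the reduced design allows). The causes were not tested. The thinnest untreated library, replicate 1 with 50 nuclei, limits untreated levels under 16.1 CPM. Constricted replicate 2 was thinner, with 34 sphincter 1 nuclei and 165217 UMIs, and 3 UMIs there correspond to 18.2 CPM.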
